A study of Mus musculus with 188 samples.

Results

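The earliest decile (10%) of the autosomal genome was described here as 4511 bins of 50 kb out of 45112 ranked bins on 19 autosomes, covering 225.55 Mb of 2255.6 Mb in mm10. The bins were chosen by their smoothed copy number score: scores were averaged over the haploid cells and over the diploid cells, both line means were averaged with equal weight to give a schedule value, and the highest-ranked 10% of bins were kept. Bins without a score in 50% or more of either line's cells were not ranked. A high score stands for a bin with more copies than the rest of the same cell, so a high rank stands for early replication. The score has no fixed unit, because the authors centred each cell and scaled it to an equal spread. The schedule value ran from 0.574 to 1.02 in the earliest decile, with a median of 0.659. The last bin inside the limit, chr9:106850001-106900000, had 0.573665 and the first bin outside, chr4:53550001-53600000, had 0.573651, so the boundary cuts a continuum.

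The cells were single S-phase nuclei of 2 mouse embryonic stem cell (ESC) lines, both grown in N2B27 with 2i and LIF and sorted by DNA content after DAPI staining. H129-2 is a haploid line, for which the study extended the sorting gates into early and late S phase. F121-9 is a diploid hybrid line that carries 1 chromosome set of the 129 strain and 1 of Castaneus (cas), so that reads over variants can be assigned to a homolog. No treatment was given to either line. Values were matched to 75 haploid and 63 diploid cells, all 138 labelled S-phase. The labels name no culture and each line carries the well names of 1 plate, so the lines stand side by side without a test, and every SD is the spread over cells. The values come from genomic DNA, so the ESC identity could not be checked against expressed markers. The tables hold no read numbers, so the depth behind each cell is unknown. Some cells stood apart. In the diploid line 3 pairs of cells, in wells G3 and C1, F7 and C5, and F11 and C12, had scores that correlated at 0.934, 0.924 and 0.924 over all ranked bins, while no pair of haploid cells exceeded 0.775. The diploid cells D10 and F11 held the most bins with unlike homologs. The haploid cell G5 had the profile least like the schedule computed without it. Values of the unreplicated share, the laggard count and the homolog comparison are given with and without these cells.

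Eukaryotic chromosomes replicate as domains that fire in a reproducible order through S phase. In mammalian cells the domains that replicate first tend to lie in the open, gene-rich compartment of the nucleus, and gene-poor heterochromatin follows late. Origins in early domains fire stochastically in each cell, so an early domain can in principle be missed by the first wave of initiation and be copied later. The states of the earliest bins in cells of different S-phase position describe how often such bins were called unreplicated. Whether a missed initiation lies behind such a call was not tested. Because the ranking used the scores of these same cells, the states below are a description with no test.

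The bins at the top of the ranking lay in 3 separate places. The 5 highest-ranked bins were contiguous, chr5:111250001-111500000, and held the 3′ end of Ttc28, the gene Pitpnb, which encodes a phosphatidylinositol transfer protein, and Mn1, a transcriptional co-regulator. The first of them, chr5:111250001-111300000, had a schedule value of 1.02, with a mean score of 0.994 in haploid and 1.05 in diploid cells. Rank 6 was chr1:36600001-36650000, wholly inside Fam178b. Rank 7 was chr17:30950001-31000000, which holds the start of Umodl1, a uromodulin-like gene. For these 3 places the promoter of the protein-coding gene that starts nearest the middle of the highest bin is printed, to show the base composition at the top of the schedule. The sequences are RefSeq promoters of GRCm38.p6, the assembly of mm10, from 250 bases before to 50 after the annotated start, read 5′ to 3′ on the gene's strand with CpG dinucleotides in capitals. Pitpnb was taken from chr5:111330447-111330746 on the plus strand, Fam178b from chr1:36683134-36683433 on the minus strand and Umodl1 from chr17:30954433-30954732 on the plus strand.
Pitpnb: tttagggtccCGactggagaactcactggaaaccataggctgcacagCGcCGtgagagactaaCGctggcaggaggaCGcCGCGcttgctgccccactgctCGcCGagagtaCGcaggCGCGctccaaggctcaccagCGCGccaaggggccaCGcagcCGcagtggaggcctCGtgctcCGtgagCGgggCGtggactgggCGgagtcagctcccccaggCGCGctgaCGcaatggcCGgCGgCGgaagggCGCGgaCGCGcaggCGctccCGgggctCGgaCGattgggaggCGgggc
Fam178b: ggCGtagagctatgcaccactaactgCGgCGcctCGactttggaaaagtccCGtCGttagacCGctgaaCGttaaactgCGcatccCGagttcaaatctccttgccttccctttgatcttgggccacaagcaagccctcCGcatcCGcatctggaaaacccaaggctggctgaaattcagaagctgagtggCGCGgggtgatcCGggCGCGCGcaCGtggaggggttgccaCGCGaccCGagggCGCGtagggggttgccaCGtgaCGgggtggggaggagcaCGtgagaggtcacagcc
Umodl1: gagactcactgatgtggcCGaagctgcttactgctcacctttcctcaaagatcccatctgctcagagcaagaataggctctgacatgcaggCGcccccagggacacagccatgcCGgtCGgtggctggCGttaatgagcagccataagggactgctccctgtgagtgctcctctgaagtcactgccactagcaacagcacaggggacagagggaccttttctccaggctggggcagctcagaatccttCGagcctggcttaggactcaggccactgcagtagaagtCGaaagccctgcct
The Pitpnb promoter had 71.3% GC and 36 CpG, the Fam178b promoter 61.7% GC and 27 CpG, and the Umodl1 promoter 57.7% GC and 7 CpG. CpG-rich promoters were thus next to the first and the second of these places, and a CpG-poor promoter lay at the third.

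The first question was how the earliest decile filled as cells moved through S phase. Progress of a cell was the percentage of its ranked autosomal bins in the replicated state, and both homologs of a diploid cell counted with equal weight. Every cell had passed 10% progress, so a cell that followed the schedule strictly would have replicated all of the earliest decile. The 3 least advanced haploid cells had not done so. The cell in well G8, at 24.6% progress, had replicated 73.9% of the earliest decile, the cell in A7, at 27.4%, had replicated 79.03%, and the cell in A3, at 27.8%, had replicated 75.3%. The 6 haploid cells below 30% progress ranged from 68.3% to 84.5% with a median of 77.1%. The 5 cells from 30% to 40% ranged from 89.2% to 93.7% with a median of 91.7%, and did not overlap the cells before them. From 40% to 50% progress the median was 98.1%, with a range of 96.4% to 99.6% in 6 cells. From 50% to 60% it was 99.4% (98.0% to 99.9%, 19 cells). In the 14 cells from 60% to 70% it was 99.9% (98.8% to 100%) and in the 25 cells from 70% to 90% it was 99.8% (95.7% to 100%). The earliest decile was therefore close to complete by mid S phase in haploid cells, and 1 late cell, G5, set the low end of the last range.

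The diploid cells followed the same course with a wider spread. The cell in A2, at 18.2% progress, had replicated 49.5% of the earliest decile and the cell in C7, at 20.4%, had replicated 47.9%. The cell in A5, at 38.4%, had replicated 88.3% and the cell in F8, at 39.6%, had replicated 97.0%. These were the only 4 diploid cells below 40%. From 40% to 50% the median was 98.3%, with a range of 89.8% to 100% in 10 cells. From 50% to 60% it was 99.3% (88.7% to 100%, 35 cells), and from 60% to 70% it was 98.6% (94.1% to 100%, 13 cells). The single diploid cell beyond, at 79.1%, had 95.9%. The upper ends of both lines met at 100%, and the lower ends were lower in the diploid line in each interval from 30% to 70%.

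**Figure D1:**
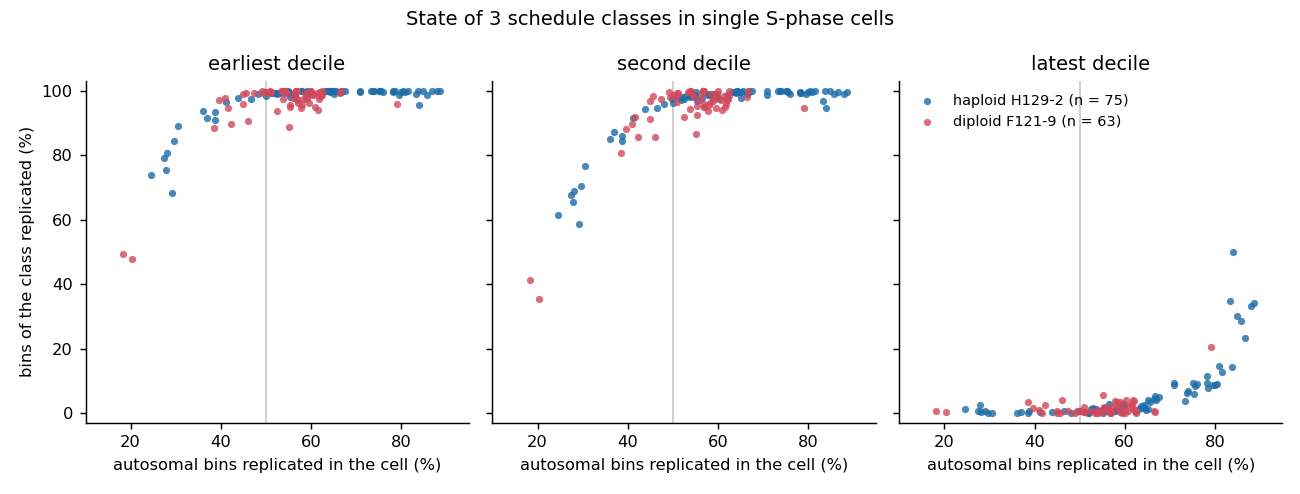
Percentage of bins replicated in each single cell (vertical axis) against the percentage of all ranked autosomal bins replicated in that cell (horizontal axis), for the earliest, the second and the latest decile of the schedule, with 1 point per cell and a grey line at 50%. The earliest decile rises from 47.9% at 20.4% progress to near 100% by mid S phase, while the latest decile stays at or below 5.76% in the cells below 60%.

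The earliest decile stood at the top of a smooth gradient and not apart from it. Its mean score was 0.596 in haploid and 0.756 in diploid cells, against 0.456 and 0.559 in the second decile of the schedule. In the 11 haploid cells below 40% progress, 83.7% ± 8.81 (SD over cells) of the earliest decile was replicated, against 73.8% of the second decile, 64.1% of the third and 0.628% of the latest decile. In the 4 diploid cells below 40% the values were 70.7% for the earliest, 61.4% for the second and 1.51% for the latest decile. Of the 11 early haploid cells 9 lay in plate row A, and no haploid cell of that row was past mid S phase, so plate row and early S phase cannot be told apart in that line.

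**Figure D2:**
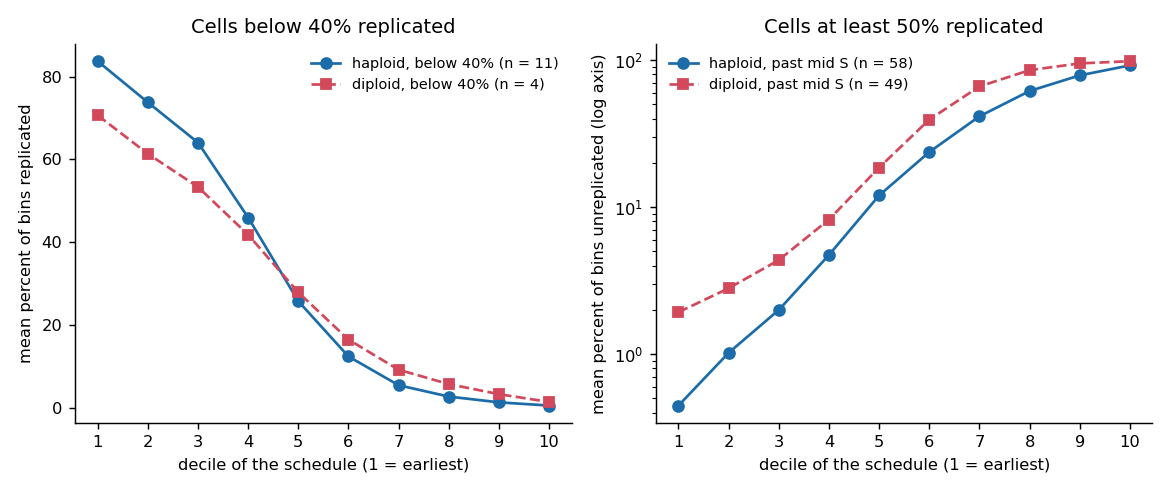
Mean percentage of bins replicated in cells below 40% progress (left, linear axis) and mean percentage unreplicated in cells of at least 50% progress (right, log axis) for each decile of the schedule, by line. The earliest decile is at 83.7% in early haploid cells, and past mid S phase it is at 0.446% unreplicated in haploid and 1.93% in diploid cells, the low end of both curves.

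Early bins that stayed unreplicated past mid S phase were the next subject. In the 58 haploid cells of at least 50% progress, 0.446% ± 0.675 (SD) of the earliest decile was unreplicated, with a median of 0.222% and a maximum of 4.30%. In the 49 diploid cells it was 1.93% ± 2.28, with a median of 0.842% and a maximum of 11.3%. In each line 8 cells had replicated all 4511 bins. More than 1% was unreplicated in 6 haploid and in 24 diploid cells, and more than 5% in 0 haploid and in 5 diploid cells. When cells of matched progress from 50% to 70% were taken, the means were 0.449% ± 0.462 in 33 haploid and 1.88% ± 2.29 in 48 diploid cells. Compared with the second decile in the same cell, less of the earliest decile was unreplicated in 49 of 58 haploid cells, more in 6, and the same share in 3. In the diploid line it was less in 43 of 49 cells, more in 3 and the same in 3. The second decile averaged 1.02% unreplicated in haploid and 2.80% in diploid cells.

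A laggard was defined as a cell past mid S phase with more than 10% of the earliest decile unreplicated. No haploid cell met this definition, and 0 of 58 allows a share of up to 5.17% when 3 counts are taken as the limit, with an exact Clopper-Pearson 95% upper limit of 6.16%. Of the 49 diploid cells 1 met it, or 2.04%, with an exact Clopper-Pearson 95% interval of 0.0517% to 10.9%. These limits cover the counting of cells alone. They take cells as independent draws, although some diploid cells were closely alike. The bins were also chosen from the scores of these same cells, so the limits bound no share beyond them. With a limit of 5% in place of 10%, the count was 5 diploid cells and no haploid cell. When a smoothed score above 0 was taken as the replicated state, the count was 13 haploid and 10 diploid cells and the unreplicated means were 6.63% and 6.10%. The order of the lines thus turned, and the absence of haploid laggards holds for the binarized states alone. Scores are centred within each cell, so 0 is not a fixed limit between the states as cells advance. From 70% to 90% progress there were 25 haploid cells and 1 diploid cell. The part of this in the turned order was not tested. The lag was uneven between cells, since the 5 most lagging cells held 39.9% of all unreplicated earliest-decile bins in the haploid and 35.8% in the diploid line.

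The diploid laggard was the cell in well F11, at 55.1% progress, with 88.7% of the earliest decile replicated. It had replicated 86.5% of the second decile and 5.76% of the latest decile. Of its earliest-decile bins 327 were unreplicated on both homologs, 219 were replicated only on 129 and 143 only on cas. Its longest stretch was chr9:44500001-46300000, 36 bins in a row with only the cas homolog replicated, over 40 protein-coding starts that include Cxcr5, a chemokine receptor, and Ddx6, an RNA helicase. Its next stretch, chr5:110700001-112250000, covered most of the domain at the very top of the schedule. There 25 bins were unreplicated on both homologs and 6 were replicated only on 129. The mean score of that stretch in this cell was -0.46, against a diploid mean of 0.910, and 47 of 49 diploid cells past mid S phase had replicated all of it. F11 was 1 of the cells with a close partner, C12. The 2 cells differed in their binarized states, which were equal in 86.2% of the earliest-decile bins, and C12 had 2.86% of the earliest decile unreplicated. Whether shared material has a part in the state of F11 was not tested. Without 1 cell of each of the 3 most alike pairs, F11 among them, no diploid laggard was left and 1.80% ± 1.84 (SD, n = 46 cells) of the earliest decile was unreplicated. Without D10 and F11 the value was 1.64% ± 1.75 (SD, n = 47 cells).

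The other diploid cells with the most lag were D10, E7, E12 and E1. D10, at 52.6% progress with 93.8% replicated, had 92 earliest-decile bins unreplicated on both homologs but 210 replicated only on 129 and 162 only on cas. Its longest stretch, chr8:12450001-13800000, had only 129 replicated in all 27 bins and holds the coagulation factor genes F7 and F10. E7 was of another kind. At 61.6% progress with 94.1% replicated, it had 259 bins unreplicated on both homologs and 14 replicated only on cas. Its longest stretch, chr1:132850001-134150000, was unreplicated on both homologs in 26 bins and holds Mdm4, a regulator of p53, and Pik3c2b, a lipid kinase. E12 had 94.7% replicated at 57.9% progress and E1 had 94.9% at 55.4%. The longest stretch of E1, chr12:112050001-113200000, was unreplicated on both homologs in 23 bins, and includes Inf2, a formin, and 42 of 49 diploid cells past mid S phase had replicated all of it. Stretches that lagged in these cells were thus replicated throughout in most other cells of the line.

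**Figure D3:**
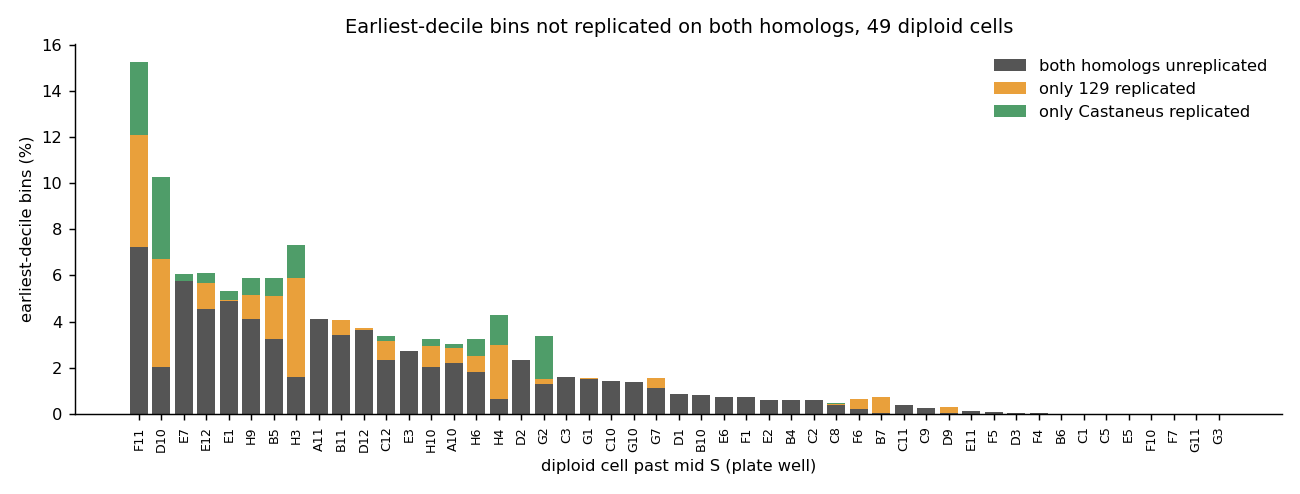
Percentage of the earliest-decile bins (vertical axis) that were unreplicated on both homologs, replicated only on 129 or replicated only on Castaneus, stacked for each of the 49 diploid cells past mid S phase (horizontal axis, plate wells). Cells are ordered by the unreplicated share, in which a bin with 1 replicated homolog has a weight of 0.5, from F11 at 11.3% to 8 cells at 0%.

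The haploid cell with the most lag was G5, at 83.99% progress with 95.7% of the earliest decile replicated. It had replicated 49.9% of the latest decile, the highest share of any haploid cell past mid S phase, whose median was 3.86%. Among the haploid cells past mid S phase its profile was also the least like the schedule of both lines computed without it, with r = 0.372 against a median of 0.795. Its 2 longest stretches were chr4:107250001-108050000, with Dio1, a thyroid hormone deiodinase, and Ndc1, a nuclear pore gene, and chr2:33150001-33900000, with Lmx1b, a homeobox gene. Each was fully replicated in 57 of 58 haploid cells past mid S phase, so G5 was the sole exception. Without G5 the haploid cells past mid S phase had 0.375% ± 0.437 (SD, n = 57 cells) of the earliest decile unreplicated. Next came D8 with 2.00% unreplicated at 55.3% progress, D7 with 1.37% at 85.8%, F3 with 1.35% at 79.6% and D9 with 1.31% at 56.5%. The longest stretch of D7, chr1:71950001-72900000 with the DNA repair gene Xrcc5, was replicated in the other 57 haploid cells too. That of F3, chr2:27100001-27850000 with Dbh, which makes noradrenaline, had the same count. Across the haploid cells past mid S phase the longest unreplicated stretch of earliest-decile bins in any cell was 1150 kb, and in the diploid cells 1900 kb. Stretches below the smoothing span of 750 kb are not well resolved.

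Cells with more lag in the diploid line also had profiles less like the rest. The correlation of a cell's profile with the schedule computed without that cell, both lines weighted equally, ran from 0.480 to 0.935 past mid S phase. Across these 49 cells it went with the unreplicated share at r = -0.69 and rho = -0.88, as a description. Both measures share the earliest bins and the noise of the cell. Without D10 and F11 the values were r = -0.72 and rho = -0.87. In the 58 haploid cells r was -0.39 and rho -0.0047, and without G5 they were -0.011 and 0.049, so the haploid r rested on G5. With progress past mid S phase, the unreplicated share had r = -0.032 and rho = -0.29 in haploid cells, or -0.28 and -0.35 without G5. In diploid cells the values were r = 0.092 and rho = 0.146, or 0.254 and 0.233 without D10 and F11.

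Lag was also counted bin by bin. Of the 4511 bins, 3552 (78.7%) were replicated in every haploid cell past mid S phase, where 20.5% of all ranked bins were. In the diploid line 1658 (36.8%) were replicated on both homologs in every such cell, where 7.95% of all ranked bins were. Both held for 1296 bins, or 28.7%, where 5.15% of all ranked bins did. No bin was unreplicated in 20% or more of the cells past mid S phase, averaged over the lines, which held for 51.4% of all ranked bins. Only 46 bins reached 5% and 1 bin reached 10%. These shares follow from the ranking and are read no further. The 1 bin was chr13:119750001-119800000 at rank 4359, named for its value, with starts of Nim1k, a protein kinase, and Zfp131, a zinc finger gene. It was unreplicated in 6 of 58 haploid and 13 of 49 diploid cells. The bin before it, outside the earliest decile at rank 6640, was unreplicated in the same 6 and 13 cells, and the bin was the last ranked bin of its chromosome.

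The earliest bins were not equally early among themselves. In the 11 haploid cells below 40% progress, 1707 bins (37.8%) were replicated in every cell, where 8.94% of all ranked bins were. At the other end, 335 bins (7.43%) were replicated in no more than 50% of these cells, where 70.5% of all ranked bins were. Adjacent bins were joined into 595 runs with a median length of 200 kb, of which 154 were single bins and 60 were 1 Mb or longer. The 106 runs of at least 750 kb held 55.8% of the bins. Of the bins that flank a run, 84.995% belonged to the second decile and 0% to the fifth decile or later. Smoothing over 750 kb ties a flank to its neighbour, so this is a property of the score. Among 358 runs of at least 3 bins, 69 were complete in all 11 early haploid cells, 56 in 10 of them and 1 in none. Past mid S phase 217 of these runs were complete in every haploid cell, 73 in every diploid cell and 43 in both. In the 163 runs of at least 10 bins, the outer 2 bins of each side were unreplicated in 0.595% of haploid cases past mid S phase and the inner bins in 0.397%. In diploid cells the corresponding values were 1.95% and 1.81%, a smaller gap in proportion.

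The runs that hold the highest-ranked bins show how the order differed from cell to cell. The run chr5:110700001-112450000, 35 bins with 18 protein-coding starts that include Chek2, a checkpoint kinase, and Ulk1, an autophagy kinase, was complete in only 5 of 11 early haploid cells. Past mid S phase it was complete in 57 of 58 haploid and 46 of 49 diploid cells. The run chr1:35950001-37350000, which holds Hs6st1, a heparan sulfate sulfotransferase, and Arid5a, was also complete in 5 of 11. The run chr17:30950001-31750000, with Abcg1, a cholesterol transporter, and the trefoil factor genes Tff1, Tff2 and Tff3, was complete in 10 of 11. In contrast, chr2:155450001-157350000 was complete in all 11 early haploid cells, with 47 starts that include Ncoa6, a nuclear receptor co-activator, and the glutathione synthetase gene Gss. So was chr4:136500001-137850000, with the histone demethylase gene Kdm1a and the complement genes C1qb and C1qc.

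The longest run, chr15:83100001-86300000, spanned 3200 kb with 46 protein-coding starts, Poldip3 and Cyb5r3 among them, and was complete in 1 of 11 early haploid cells. The run chr1:132100001-135000000 of 2900 kb, with Nuak2, was complete in 8 of 11. The run chr7:98400001-101250000 of 2850 kb, with Wnt11, a Wnt ligand, and Uvrag, an autophagy gene, was complete in 4 of 11 early haploid cells but in all 58 haploid and all 49 diploid cells past mid S phase. The fourth and the fifth in length were chr10:76100001-78350000, with the arginine methyltransferase gene Prmt2, and chr15:77700001-79700000, with Myh9, a non-muscle myosin. They were complete in 58 and 57 of 58 haploid cells and in 47 and 44 of 49 diploid cells. Long runs were thus copied throughout in nearly all cells past mid S phase. The single run of at least 3 bins complete in no early haploid cell, chr3:100900001-102750000, holds Cd2 and Ptgfrn. It was named for this value, and 43.98% of its bins were replicated in these cells on average.

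Among runs of at least 3 bins, the 5 with the most lag were 500 kb or shorter and lagged more in the diploid than in the haploid line. In chr7:19350001-19700000, 7 bins with 21 starts that include Ercc2, a DNA repair helicase, and Ckm, the muscle creatine kinase gene, 83.8% of bin states were replicated in diploid cells past mid S phase. That run was complete in 39 of 49 diploid cells, but in all 58 haploid cells past mid S phase and in all 11 early haploid cells. The run chr7:25200001-25500000, with the transcriptional repressor genes Cic and Erf and the kinase gene Gsk3a, was complete in 42 of 49 diploid and 58 of 58 haploid cells. The run chr4:156050001-156200000, with Agrn, which encodes the synapse organizer agrin, was complete in 43 and 56 cells. The run chr10:81150001-81650000, with the elongation factor gene Eef2 and the SUMO ligase gene Pias4, was complete in 43 and 57. The run chr15:12350001-12850000, with Drosha, which processes primary microRNAs, was complete in 44 and 57. Their GC contents, in this order, were 52.001%, 50.03%, 48.96%, 53.97% and 45.74%, against 47.2% over the earliest decile.

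Lag was also set against base composition by splitting the earliest decile into quintiles of GC content. In the quintile with the least GC, up to 44.3%, 1.63% of states were unreplicated in diploid cells past mid S phase, and in the quintile with the most GC, from 50.2% to 56.7%, 2.70% were. The quintiles between had 1.68%, 1.69% and 1.94%. In haploid cells the order was the opposite, falling from 0.565% through 0.493%, 0.421% and 0.403% to 0.348%. Cell by cell, the quintile with the most GC had more unreplicated bins than the quintile with the least in 24 diploid cells and fewer in 16. In haploid cells it had more in 16 and fewer in 32. Without D10 and F11 the diploid values were 1.34% in the quintile with the least GC and 2.37% in that with the most, and without G5 the haploid values were 0.525% and 0.266%. The mean score, which the ranking used, rose with GC from 0.559 to 0.650 in haploid cells. In diploid cells it was 0.756 in the quintile with the least GC and 0.748 in that with the most. The quintiles were thus not equally early in the haploid line. The median SD of the score over cells rose with GC in both lines, from 0.413 to 0.437 in haploid and from 0.443 to 0.495 in diploid cells. In early haploid cells 80.3% of the quintile with the least GC and 89.97% of that with the most was replicated, whereas the 4 early diploid cells had 72.2% and 68.3%. Amplification and mapping vary with GC, and their part in these values was not tested.

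The lines were then compared by ranking bins from each line alone. The top decile of the haploid and that of the diploid ranking shared 2508 bins, or 55.6% of each. When a decile is chosen in 1 line, its states in the other line come from cells that the choice did not use. Both lines were divided by the mean coverage of the same control cells and masked alike, so the lines share that divisor. The haploid-ranked decile was replicated in diploid cells past mid S phase to 97.3% ± 2.89 (SD, n = 49 cells). The diploid-ranked decile was replicated in haploid cells past mid S phase to 99.3% ± 0.845 (SD, n = 58 cells) and in early haploid cells to 78.01% ± 9.99 (SD, n = 11 cells). The haploid-ranked decile in the same early haploid cells, which chose it, had 87.999% ± 7.31. In the 4 early diploid cells the haploid-ranked decile had 66.7% ± 27.5 (SD) and the diploid-ranked decile 71.2% ± 24.2, a gap within the spread. Bins that were earliest in 1 line were therefore nearly complete past mid S phase in the other. In diploid cells 2.73% of the haploid-ranked decile was unreplicated, near the 2.80% of the second decile of the schedule. Less of the diploid-ranked than of the haploid-ranked decile was replicated in early haploid cells. Those cells had a part in choosing the haploid-ranked decile, so this gap is read no further.

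Part of the difference in rank followed whole chromosomes. Ranked from both lines, the share of a chromosome in the earliest decile ran from 4.12% of chromosome 13 to 14.9% of chromosome 16. Chromosome 11, which is rich in genes, had 20% of its bins in the haploid-ranked but 1.25% in the diploid-ranked top decile, and 6.48% in the combined one. Chromosome 19 had 20.5% and 2.61%, and chromosome 7 had 16.95% and 4.63%. Chromosomes 3 and 16 went the other way, with 2.34% against 14.9% and with 7.06% against 19.1%. The median score of all ranked bins of chromosome 11 was 0.341 in haploid and 0.103 in diploid cells, and that of chromosome 3 was -0.33 and -0.27. The medians of chromosomes 19 and 7 also went with their shares. That of chromosome 16 did not, with -0.139 in haploid and -0.164 in diploid cells. After each chromosome was centred on its own median in each cell, the deciles shared 73.8% of their bins. The authors brought aneuploid chromosomes to the mean of control cells, and the part of that step in the shift of whole chromosomes was not tested. The members of chromosomes 19 and 11 were the most complete in early haploid cells, at 95.5% and 94.7%. Those of chromosomes 3 and 13 were the least, at 69.4% and 71.1%. The scores of these haploid cells had a part in choosing the members, so this order is read no further.

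**Figure D4:**
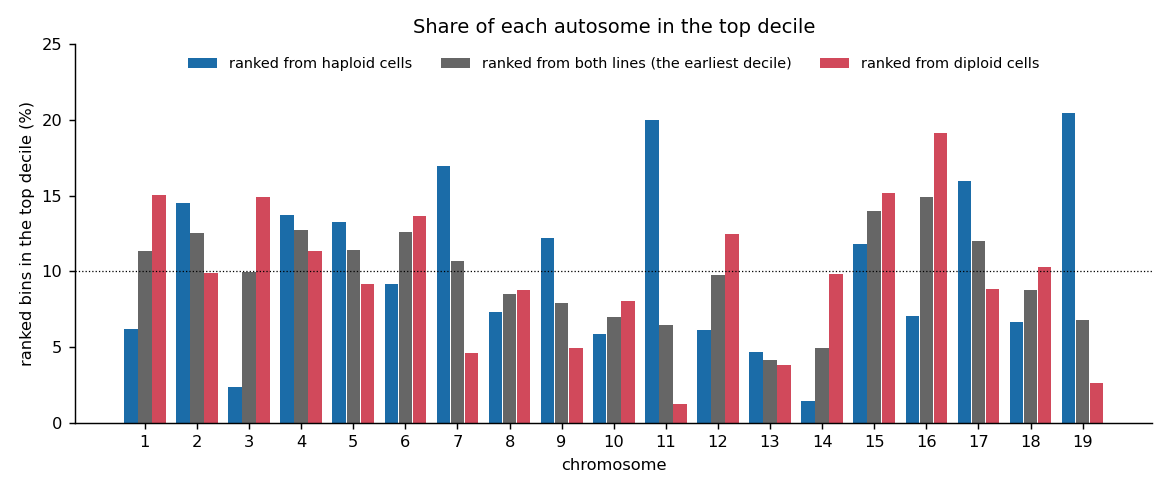
Percentage of the ranked bins of each autosome in the top decile (vertical axis, from 0) when ranked from haploid cells alone, from both lines or from diploid cells alone; the dotted line marks 10%. Chromosomes 11 and 19 reach 20% and 20.5% in the haploid ranking and 1.25% and 2.61% in the diploid ranking, and chromosomes 3 and 16 are higher in the diploid one.

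The same pattern named the runs that differed most in score. The 3 runs with the largest haploid excess lay on chromosome 11. At chr11:98300001-98500000, with Neurod2, a neuronal transcription factor, and Tcap, a sarcomere gene, the mean score was 0.770 in haploid and 0.424 in diploid cells. At chr11:96400001-96800000, with Cbx1, which encodes the heterochromatin protein HP1 beta, it was 0.732 and 0.452. At chr11:75700001-76500000, with the 14-3-3 gene Ywhae, it was 0.754 and 0.513. The 3 runs with the largest diploid excess lay on chromosome 3. At chr3:27150001-28000000, with Ect2, a cytokinesis gene, and Tnfsf10, a death ligand, the mean score was 0.318 in haploid and 0.956 in diploid cells, and 25.1% of its bins were replicated in the early haploid cells. At chr3:79250001-79650000, with Rapgef2, it was 0.398 and 1.01, and at chr3:86800001-88300000, with Cd1d1, an antigen-presenting molecule, it was 0.460 and 1.03. Scores are relative within a cell, and 479 of the 595 runs had the higher mean in diploid cells.

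Sequence and gene content were not used by the rule. The earliest decile had 47.2% GC ± 3.33 (SD over bins), against 41.98% in all ranked bins, and GC fell in each later decile to 37.1% in the latest. Protein-coding genes of GENCODE vM21 started at 17.8 per Mb in the earliest decile, which was 2.07 times the 8.58 per Mb of all ranked bins. The density was 16.8 per Mb in the second decile and 1.07 per Mb in the latest. Still, 46.6% of the earliest bins held no protein-coding start, against 72.01% of all ranked bins, and 124 of the 595 runs held none. Neighbouring bins share isochores and gene clusters, so bins are not independent and no test is given. Bins in the haploid-ranked decile alone had 21.8 starts per Mb, those in the diploid-ranked decile alone had 13.3 and the shared bins had 18.2. Chromosomes 7, 11 and 19, with larger shares in the haploid ranking, had 14.4, 13.8 and 12.6 starts per Mb. Chromosomes 3 and 16, with larger shares in the diploid ranking, had 6.34 and 7.01. The part of such chromosome shares in the gap was not tested.

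**Figure D5:**
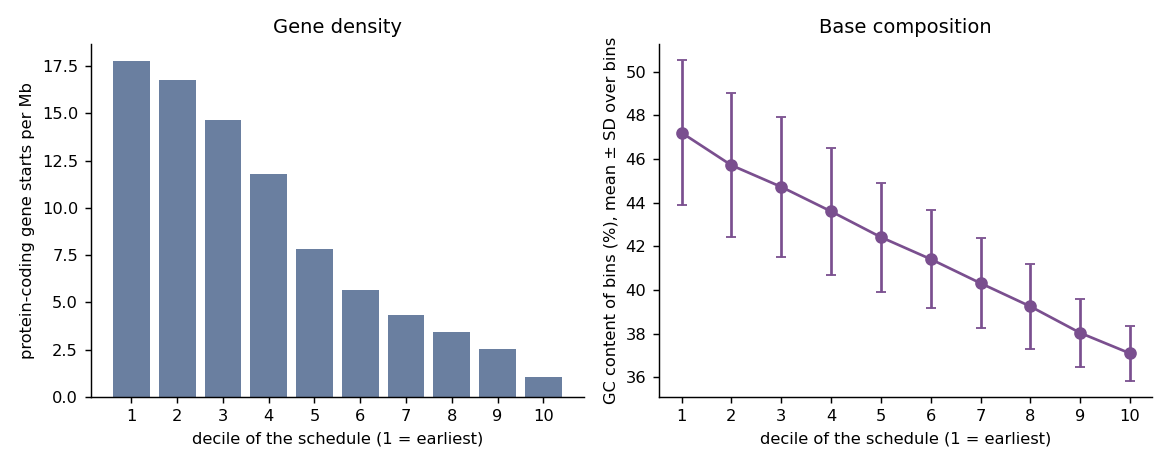
Protein-coding gene starts per Mb (left, bars from 0) and mean GC content with the SD over bins (right, percent) in each decile of the schedule. Gene density falls from 17.8 per Mb in the earliest to 1.07 per Mb in the latest decile, and GC content from 47.2% to 37.1%.

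RefSeq promoters with starts in the ranked bins numbered 18017, of which 3841, from 3068 genes, were in the earliest decile. The GC box, GGGCGG or CCGCCC on the other strand, was found in 56.6% of the earliest-decile promoters, in 49.7% of all and in 16.5% of the 218 in the latest decile. The letters TATAAA, on either strand, were found in 6.90%, 11.6% and 24.8%. The median number of CpG per promoter was 18 in the earliest decile, 15 in all and 3 in the latest decile. The second decile had 56.995% with a GC box and a median of 18 CpG, so the promoters of the earliest decile resembled those of the second. A match is a match of letters and not a shown binding site.

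Of 19318 protein-coding genes placed in ranked bins, 4003 started in the earliest decile, or 20.7%. Gene lists are read against this share. Of 71 ribosomal protein genes 19 were in the earliest decile, among them Rpl12, Rpl13, Rpl17 and Rpl18. Rpl13 lay in the bin of rank 148, which was replicated in all 11 early haploid cells and in every cell past mid S phase of both lines. Of 20 licensing and helicase genes 4 were in the earliest decile. These were Cdt1, which loads the helicase onto origins, the helicase subunit gene Mcm2, and Gins2 and Gins3 of the GINS complex. The bin of Gins2 was at rank 189 and that of Cdt1 at rank 369. Mcm2, at rank 3314, was replicated in 5 of 11 early haploid cells. Of 20 replication fork genes 6 were in the earliest decile, with the flap endonuclease gene Fen1 and the polymerase subunit genes Pold3, Pold4 and Pole2 among them. Of 20 cytosolic aminoacyl-tRNA synthetase genes there were 5, with Cars, Gars, Mars and Sars among them, and of 32 proteasome genes there were 5, with Psma5, Psmb1, Psmc1 and Psmd1 among them. Gars, close to the boundary at rank 4443, was replicated in 4 of 11 early haploid cells and in 47 of 49 diploid cells past mid S phase.

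Of 20 pluripotency genes 7 were in the earliest decile. None was in the latest 3 deciles, which also held for the licensing, fork, synthetase, proteasome, histone, Hox and keratin lists. Of all 19345 protein-coding starts in ranked bins, only 771, 570 and 242 lay in the eighth, the ninth and the latest decile. An absence from these deciles in a list of 20 genes is therefore read no further. Esrrb, a nuclear receptor of the ESC network, was at rank 740, Fgf4, a growth factor of ESCs, at rank 1300, Lin28a, an RNA-binding protein, at rank 1769 and Prdm14, a repressor that keeps ESCs naive, at rank 3793. Each of these 4 was replicated in all 11 early haploid cells, which did not hold for all members of the list. Sox2 started in the run chr3:34100001-35050000, of which 55.5% was replicated in these cells and which was complete in 3 of them. Sall4 started in the run chr2:168650001-168850000, complete in 10 of them. Of the cells past mid S phase, 58 of 58 haploid and 48 of 49 diploid ones had replicated Esrrb, and 58 and 46 had replicated Prdm14.

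The gene clusters on the lists were rarely in the earliest decile. The second decile, given beside it, held 19.6% of all protein-coding genes. None of 61 replication-dependent histone genes was in the earliest decile and 10 were in the second decile. None of 39 Hox genes was in the earliest decile, although 28 were in the second decile. Of 53 keratin genes 2, Krt17 and Krt42, were in the earliest decile and shared 1 bin. Of 1057 olfactory receptor genes 11 were, and of 201 vomeronasal receptor genes 1 was, Vmn1r1. Of the named olfactory receptor genes, Olfr12 and Olfr1410 shared 1 bin on chromosome 1 and Olfr1411 and Olfr1412 the bin beside it. These bins were replicated in 4 and 3 of 11 early haploid cells. Of the olfactory receptor genes 41 lay in the second decile and 455 in the latest 3 deciles, for which the starts of all protein-coding genes are given above. Genes of a cluster share bins and are not independent.

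The homologs of the diploid cells were compared last. The states of homologs were set equal by the authors unless enough assigned reads called for a difference, so asynchrony is a lower count. On average 0.751% ± 1.67 (SD, n = 63 cells) of the earliest decile was replicated on only 1 homolog, with a median of 0% and a maximum of 8.25%. The second decile had 0.787%, the latest 0.729% and all ranked bins 0.870%. The means were higher in the middle of the schedule, from 0.911% to 1.02% in the fourth to the eighth decile. Within a cell, the earliest decile minus the other bins was -0.13 ± 0.874 percentage points, lower in 34 cells and higher in 11. The earliest decile thus differed from the rest by less than the spread over cells. At least 1 cell had asynchronous homologs in 1613 of the bins, or 35.8%, where 40.4% of all ranked bins did. No bin was asynchronous in more than 4 cells. Of the asynchronous earliest-decile bins D10 held 17.4%, F11 16.97% and H3 12.1%, or 46.6% together. Without D10 and F11 the mean was 0.516% ± 1.02 (SD, n = 61 cells), and without 1 cell of each of the 3 most alike pairs it was 0.660% ± 1.42 (SD, n = 60 cells). Only 129 was replicated in 0.469% of bins and only cas in 0.281%, and 129 led in 26 cells and cas in 5. Over all ranked bins the values were 0.535% and 0.335%, and 129 led in 39 cells and cas in 5. The limit that the authors used for 129 lay nearer 0 than that for cas, and its part in this difference was not tested. In diploid cells past mid S phase, 5202 earliest-decile states over all cells were short of full replication, and of these 3319 were unreplicated on both homologs, 1181 replicated only on 129 and 702 only on cas.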

How the data were processed

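Single nuclei were amplified and sequenced by the authors. They mapped reads to mm10 with Bowtie2, divided coverage in 50 kb windows by that of control cells, centred and scaled each cell and median smoothed it over 15 windows (750 kb). The deposited smoothed values are a score without a unit. The second deposited table holds the authors' binarized states, 0 or 1, for each homolog in diploid cells, where homologs keep 1 state unless assigned reads passed limits. SAMtools and bedtools are named per the labels, without versions.

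Of 188 labelled cells, 75 haploid and 63 diploid ones had a column named for their well. The remaining labelled cells (11 haploid and 33 diploid in S phase, 6 in G1) had none and stayed out. No label matched 24 other columns, from 8 diploid cells, and they were left unused. Ranking, states, runs and gene content were computed with Python 3.11.15, numpy 2.4.6, pandas 2.3.3 and scipy 1.17.1, checked on simulated data. Runs were named by rank, length, lag and line difference, with up to 6 genes each by position, of which some are printed. From each gene list, up to 4 alphabetically first members in the earliest decile were named. Sox2 and Sall4 were added for the states of their runs. The members, lists and rules were chosen with earlier results of these data known. Alternatives changed the ranking, the state, the progress limits, the laggard limit and the cells used. Depth per cell is unknown.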

Additional observations from a re-analysis of the deposited data

How the results depend on the processing

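A total of 11 results were recomputed under 112 alternatives, 99 planned and 13 chosen after seeing the data. Of these 95 left a value within its spread over cells, or a count within 1.5 times, and 17 did not. Within that spread the haploid unreplicated share of 0.446% still moved by over 1.5 times in 4 alternatives, to 0.712% ranked from diploid cells, 0.686% with chromosomes centred, 0.733% for the top 20% of bins and 0.928% in cells of 40% to 60% progress. Counting a score above 0 as replicated, in place of the binarized state, gave 6.63% of the earliest decile unreplicated in haploid and 6.10% in diploid cells past mid S phase, 13 haploid and 10 diploid laggards, and 5 bins unreplicated in at least 20% of these cells. This turned the order of the lines in the unreplicated share and in the number of laggards, and the cause was not tested. Since scores are centred within each cell, 0 is not a fixed limit between the states. Ranking by the share of cells with a replicated state gave 0 diploid laggards, 93.9% of the decile replicated in haploid cells below 40% progress and 39.4% of the haploid top decile shared with the diploid one. That share was 73.8% after chromosomes were centred, 44.2% for the top 5% and 70.5% for the top 20% of bins. The number of diploid laggards was 5 at a limit of 5%, 0 at a limit of 20%, 0 without 1 cell of each of the 3 most alike pairs and 0 without D10 and F11. The number of bins unreplicated in at least 20% of cells became 1 when progress was counted outside the earliest decile, and 1 when the limit was 10%. The excess in GC lay between 4.48 and 5.74 percentage points, the ratio of gene density between 1.66 and 2.33, and the median run between 150 and 300 kb in all alternatives run. No paired analysis was possible because a well shared by both plates holds unrelated cells and nothing was tested.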
